A study of Mus musculus with 4 samples.

Results

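Of the mouse SOXB genes, Sox1, Sox3, Sox14 and Sox21 were examined here, leaving out Sox2, which the experiment itself manipulates. The regions described are those that overlapped the gene span of a member, or the 50 kb on either side of it, in mm10. There were 49 such regions among 170898 in all: 22 at Sox1, 2 at Sox3, 7 at Sox14 and 18 at Sox21. A region is a stretch of the genome made by merging the peaks of the 4 deposited lists that overlapped by at least 1 bp, and a region counts as called in each library that has a peak there.

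Open chromatin was mapped by ATAC-seq, in which a transposase inserts adapters into accessible DNA, in embryonic stem cells of the mouse line 2TS22C grown in 2i serum/LIF medium. According to the labels, all cells were treated with DOX and had their endogenous Sox2 gene silenced. They differed in the lentivirus they carried, which supplied SOX2 in one group and SOX17FNV, an engineered form of the endoderm factor SOX17, in the other. Each group had 2 libraries of 900000 starting cells, which their titles call biological replicates. Nothing in the labels says whether these came from separately derived lines or cultures, or which promoter drove the transgenes. What the spread between replicates takes in is therefore not known, and part of it may be technical.

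SOX proteins bind the minor groove of DNA through an HMG box and bend it. The SOXB1 proteins SOX1, SOX2 and SOX3 act mainly as activators that keep neural progenitors undifferentiated, and the SOXB2 proteins SOX14 and SOX21 act mainly as repressors that counter them. Sox1 marks the early neuroectoderm, Sox3 acts in neural progenitors, the pituitary and the testis, Sox14 marks groups of neurons, and Sox21 acts in neural progenitors, in the early embryo and in hair follicles. All 4 are small genes without introns. The comparison asks whether chromatin at these relatives of Sox2 differs between cells supplied with SOX17FNV and cells supplied with SOX2.

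The promoters of 3 of the 4 genes could be read from RefSeq (build GRCm38.p6, the same coordinates as mm10). They are shown because the calls over them differ between the members: those of Sox1 and Sox21 were called in every library and that of Sox14 in none. Each runs 5′ to 3′ on the strand of the gene, from 250 bases before its start to 30 after it. Capitals mark a CCAAT box (CCAAT or ATTGG) or an octamer (ATGCAAAT or ATTTGCAT), the site that POU factors such as OCT4 bind.
Sox1, chr8:12395269-12395548, + strand: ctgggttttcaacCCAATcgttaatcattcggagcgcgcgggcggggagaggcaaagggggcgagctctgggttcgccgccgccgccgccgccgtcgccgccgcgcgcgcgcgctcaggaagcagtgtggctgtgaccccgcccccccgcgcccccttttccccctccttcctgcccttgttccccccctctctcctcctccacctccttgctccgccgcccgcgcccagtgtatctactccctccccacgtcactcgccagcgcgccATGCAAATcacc
Sox14, chr9:99876141-99876420, - strand: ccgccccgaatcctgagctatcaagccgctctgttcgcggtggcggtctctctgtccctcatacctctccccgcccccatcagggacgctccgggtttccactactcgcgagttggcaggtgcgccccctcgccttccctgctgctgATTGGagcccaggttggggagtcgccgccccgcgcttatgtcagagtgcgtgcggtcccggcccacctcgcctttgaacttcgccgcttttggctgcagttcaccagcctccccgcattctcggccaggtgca
Sox21, chr14:118237001-118237280, - strand: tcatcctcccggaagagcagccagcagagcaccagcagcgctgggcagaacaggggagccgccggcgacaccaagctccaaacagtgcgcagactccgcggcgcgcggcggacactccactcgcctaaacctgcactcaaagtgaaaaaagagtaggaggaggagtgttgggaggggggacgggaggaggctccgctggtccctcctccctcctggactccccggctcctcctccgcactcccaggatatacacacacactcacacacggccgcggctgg

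With the start counted as 0, the octamer of Sox1 began at position 18 and its CCAAT box at -237, and the CCAAT box of Sox14 began at -103. Sox21 held neither, so it has no capitals. Both strands of the full promoters, 300 bases each, were searched for letters alone. Over 21262 promoters of protein-coding genes, the octamer was found in 1.66% and the CCAAT box in 38.2%. The SOX core ACAAT (27.7% of promoters), the longer SOX and TCF core ACAAAG (16.8%) and the TATA box TATAAA (12.6%) were found in none of the 3. The SOX-OCT composite, which joins a SOX core on the opposite strand to the octamer, was found in 0 of all promoters with or without a spacer base.

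In all 4 libraries a peak overlapped the promoter of Sox1 and that of Sox21, and in no library that of Sox14. Of all promoters, 55.3% were called in every library. The share was 5.17% among promoters with up to 4 CpG dinucleotides and 91.7% with 20 to 29, and all 3 promoters are rich in them: Sox1 has 37 in its 300 bases (percentile 93.1 of promoters), Sox14 has 26 (percentile 78.4) and Sox21 has 22 (percentile 69.8), against a median of 13. Of 1980 promoters with 25 to 29 CpGs, the range that holds Sox14, 91.7% were called in all libraries and 63 (3.18%) in none. Sox14 was among those 63, in both groups alike. A promoter that is not called is one where no summit passed the threshold of that list, not one shown to be closed.

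**Figure D1:**
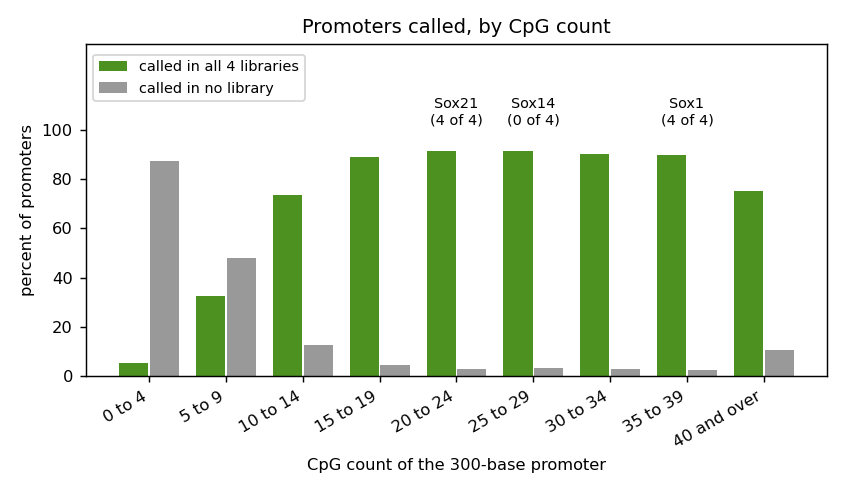
Share of promoters of protein-coding genes that overlapped a peak in all 4 libraries (green) or in no library (grey), as a percent, by the number of CpGs in the 300-base promoter. Names above the bars place the members: Sox21 and Sox1 were called in 4 of 4 libraries, Sox14 in 0 of 4 although 91.7% of promoters with 25 to 29 CpGs were called in all.

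The lists held 92851 to 123214 peaks, with the longer list in replicate 1 of either group. The files give no read totals, so the number of fragments over a summit, its pileup, was recovered from the deposited fold and p-value. Percentiles within the lists rank peaks by this p-value, the smallest standing highest, and not by pileup. The median pileup of the regions called in all 4 libraries, the shared regions, was 33 and 24 with SOX17FNV against 35 and 28 with SOX2. Pileups are given below also relative to this median, which sets the libraries on a common scale. Of 12 markers of embryonic stem cells, all had a peak within 1 kb of a gene end in every library. So did 13900 of all 21883 protein-coding genes (66.8% to 70.2% in single libraries). The same held for 7 of 8 neural progenitor markers (7 or 8 in single libraries), 5 of 8 fibroblast markers (5 or 6) and 5 of 8 endoderm markers (5 or 6). An open gene end therefore does not by itself tell these cell types apart.

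At Sox1 (chr8:12395519-12399555) peaks were called over the promoter and along the gene in all 4 libraries, and no shared region passed the test between the factors. The region over the promoter, chr8:12394945-12396209, reached pileups of 44 and 34 with SOX17FNV against 50 and 38 with SOX2. Relative to the library medians these were 1.38 ± 0.059 and 1.39 ± 0.051 (SD, n = 2), so the groups overlapped. In the limma fit over all 57783 shared regions the log2 difference, SOX17FNV minus SOX2, was -0.019 ± 0.19 (SE, adjusted p = 0.983). Sox1 also lies inside the span of Sox1ot, a long non-coding RNA gene. A further shared region within the gene, chr8:12397331-12397749, had pileups of 29 and 31 against 37 and 25, again overlapping (adjusted p = 0.874 by limma), and a stretch between them, chr8:12396971-12397157, was called in SOX2 replicate 1 alone with a pileup of 29.

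The tallest Sox1 region was not at the gene but 38673 bp downstream, at chr8:12438228-12440149. It was 1922 bp wide and reached 60 and 56 with SOX17FNV against 65 and 54 with SOX2, a mean percentile of 95.5 within the lists. A second strong region, 31518 bp downstream in Sox1ot (chr8:12431073-12432334), had 55 and 35 against 53 and 40, and one 1203 bp downstream (chr8:12400758-12401857) had 52 and 27 against 42 and 42. In each of these the groups overlapped, with adjusted p-values of at least 0.838 by limma.

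Of the 22 regions around Sox1, 9 were called in all libraries (40.9%, against 33.8% of all regions), 8 in a single library, and 0 in both libraries of 1 group and neither of the other. Among the 9, the relative pileup was higher in both SOX17FNV libraries than in either SOX2 library in 2, 49166 bp upstream and 20833 bp downstream, and lower in 1, 46085 bp downstream. None of the 9 passed the limma threshold of an adjusted p of 0.05. The mean log2 difference over the 9 was 0.049, or 1.03-fold, with group means of 0.22 ± 0.0087 and 0.17 ± 0.027 (SD, n = 2). The exact permutation p was 0.33, the smallest that 2 libraries against 2 can give. Other shared regions within 10 Mb on chromosome 8 had a median difference of 0.047, and with their median as the scale the Sox1 mean turned to -0.0074.

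**Figure D2:**
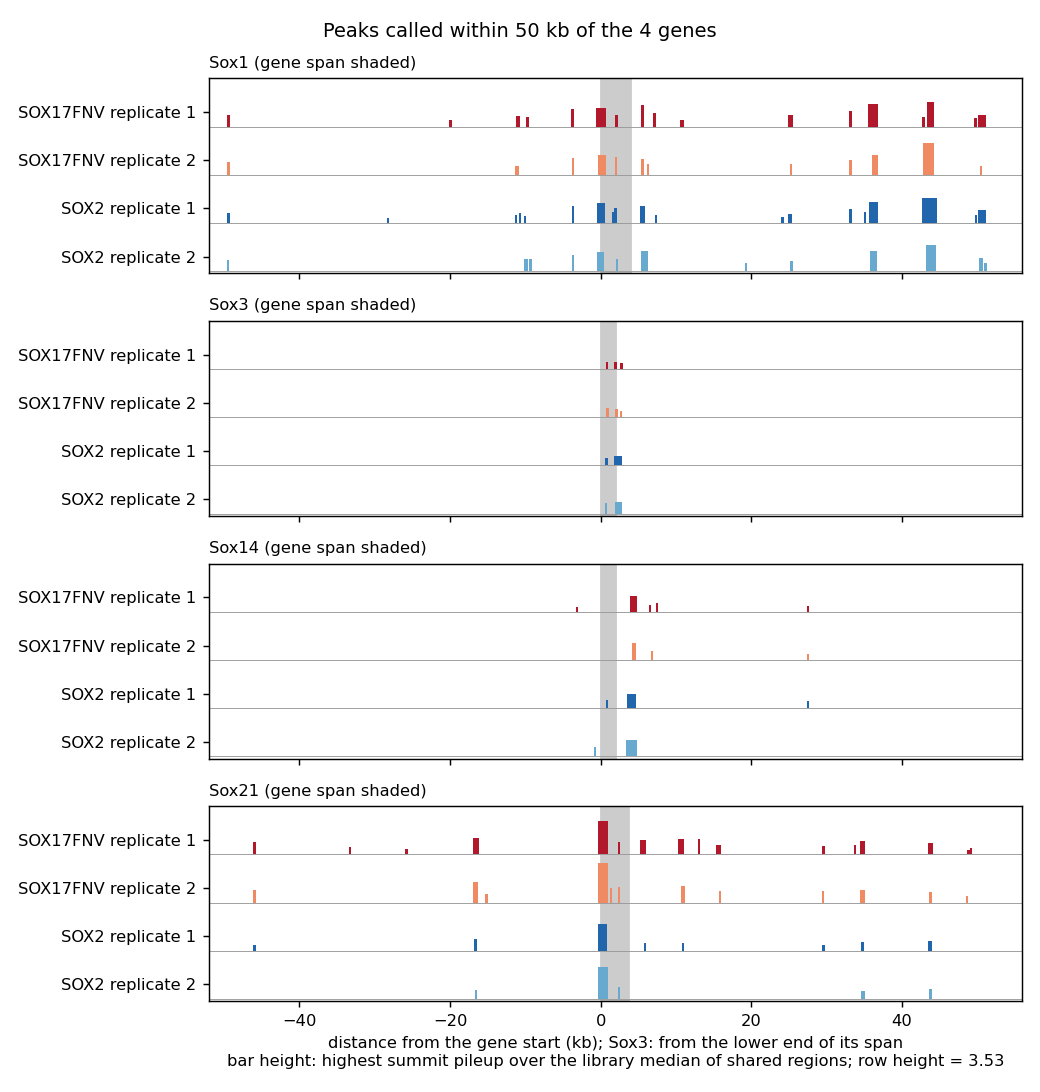
Peaks of each library within 50 kb of the 4 genes, with distance from the gene start in kb along the bottom (upstream to the left, for Sox3 counted from the lower end of its span) and the gene span shaded. Bar height is the highest summit pileup of a peak over the library median of shared regions, and the red rows are SOX17FNV and the blue rows SOX2. Sox1 and Sox21 hold peaks over their starts and across the window, Sox3 only at the gene, and Sox14 has its tall peak in all libraries downstream of the gene.

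Sox3 (chrX:60891366-60893430) stood alone in its surroundings: both regions of its window overlapped the gene span, and no peak of any library lay elsewhere within 50 kb. Its promoter is not shown. Both regions were called in all 4 libraries and were low, below the library median of shared regions throughout. The one inside the gene, chrX:60891882-60892295, had pileups of 17 and 16 with SOX17FNV against 19 and 22 with SOX2. The other, chrX:60893065-60894216, spans the higher end of the gene and the lower end of Gm38438, a long non-coding RNA gene, and had 17 and 14 against 24 and 24.

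For the region at the higher end of Sox3, relative pileups were 0.549 ± 0.048 with SOX17FNV and 0.771 ± 0.12 with SOX2 (SD, n = 2), with the groups apart. The log2 difference was -0.48 ± 0.28 (SE), with an adjusted p of 0.467 by limma. For the region inside the gene the groups overlapped, at 0.591 ± 0.11 and 0.664 ± 0.17, with a log2 difference of -0.16 ± 0.29 (adjusted p = 0.880 by limma). The mean over both was -0.32, a ratio of 0.801 (exact permutation p = 0.667). On chromosome X the other shared regions had a median difference of -0.096, and 34.4% of them were lower in both SOX17FNV libraries, against 18.4% of all shared regions. With the chromosome's own median as the scale the mean difference at Sox3 was -0.18. Within 10 Mb of Sox3 the median was -0.025, and on that scale the mean difference was -0.25. Peaks covered 0.989% and 0.881% of the Sox3 window with SOX17FNV against 1.38% and 1.30% with SOX2. The groups did not overlap here either (exact permutation p = 0.33, the smallest possible). Chromosome X outside the window held 2.23% and 2.34% of all base pairs under peaks with SOX17FNV against 2.68% and 2.76% with SOX2. Within 10 Mb of Sox3 these shares were 0.157% and 0.164% against 0.176% and 0.181%, so the surroundings were lower with SOX17FNV as well.

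At Sox14 (chr9:99874106-99876170), whose product is a SOXB2 repressor, no region of the gene was called in more than 1 library. A stretch inside it, chr9:99875351-99875520, was called in SOX2 replicate 1 alone with a pileup of 21. Another, 762 bp upstream at chr9:99876932-99877070, was called in SOX2 replicate 2 alone with 19. The only shared region lay 1341 bp downstream of the gene, at chr9:99871404-99872765. It had pileups of 38 and 29 with SOX17FNV against 37 and 33 with SOX2, or 1.18 ± 0.040 and 1.12 ± 0.086 relative to the medians (SD, n = 2). The groups overlapped, and the log2 difference was 0.080 ± 0.21 (SE, adjusted p = 0.921 by limma; exact permutation p = 0.667). With the mean of the summits in place of the highest, the difference was 0.28 and the groups did not overlap (exact permutation p = 0.33, the smallest possible). Shared regions within 10 Mb had a median of 0.031.

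Next to it, 4342 bp downstream of Sox14, a region at chr9:99869319-99869764 was called in both SOX17FNV libraries and neither SOX2 library, here termed SOX17FNV-only. It was low, with pileups of 16 and 15 and a mean percentile of 5.38 within the lists. Its 2 peaks shared only 29 bp, 14.9% of the shorter, so the libraries called mostly different stretches of it. A region in Gm518, chr9:99848488-99848838, was called in both SOX17FNV libraries with 13 and 10 and in SOX2 replicate 1 with 17. SOX17FNV replicate 1 alone called the last of them, 5224 bp downstream with 21 and 3020 bp upstream with 11.

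Sox21 (chr14:118233233-118237030) had the highest summit over any of the 3 promoters shown. The region over its start, chr14:118236001-118237431, which also takes in the end of the long non-coding RNA gene Gm4675, reached pileups of 82 and 69 with SOX17FNV against 69 and 65 with SOX2. It stood at a mean percentile of 97.4 within the lists. Relative to the medians these were 2.68 ± 0.28 and 2.15 ± 0.25 (SD, n = 2), with both SOX17FNV libraries above both SOX2 libraries. The log2 difference was 0.32 ± 0.17 (SE, adjusted p = 0.412 by limma), and -0.051 when scaled to the median of chromosome 14. Inside the gene, chr14:118234489-118234788 was called in 3 libraries, with 31 and 27 in the SOX17FNV libraries and 24 in SOX2 replicate 2. A narrow stretch beside it, chr14:118235625-118235803, was called in SOX17FNV replicate 2 alone with 25.

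The largest difference between the groups among the 16 shared regions of the 4 windows was 16218 bp upstream of Sox21, inside Gm4675, at chr14:118253248-118253998. Its pileups were 39 and 36 with SOX17FNV against 29 and 18 with SOX2, or 1.34 ± 0.22 against 0.736 ± 0.13 (SD, n = 2), with no overlap of the groups. The log2 difference was 0.87 ± 0.23 (SE), and it was the only one of the 16 past the threshold (adjusted p = 0.0369 by limma). Over all shared regions 0.893% were called higher and 1.23% lower in SOX17FNV (516 and 710 regions, or 274 and 670 when each chromosome was scaled to its own median). The call was kept with the replicate number as a block (adjusted p = 0.00281 by limma), a pairing for which the labels give no reason. The call was lost with the chromosome 14 median as the scale (log2 difference 0.49, adjusted p = 0.375 by limma). It was also lost without an intensity trend (0.87, adjusted p = 0.0970) and with regions of low mean pileup left out (0.83, adjusted p = 0.0519). When SOX2 replicate 1 or 2 was dropped the log2 difference was 1.05 or 0.68, with adjusted p-values from limma of 0.116 and 0.346. When SOX17FNV replicate 1 or 2 was dropped it was 1.04 or 0.70, and there limma called 0 of the 57783 regions (5891 and 4572 had an unadjusted p under 0.05), so the loss of the call (adjusted p = 0.475 and 0.626) is not particular to this region.

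**Figure D3:**
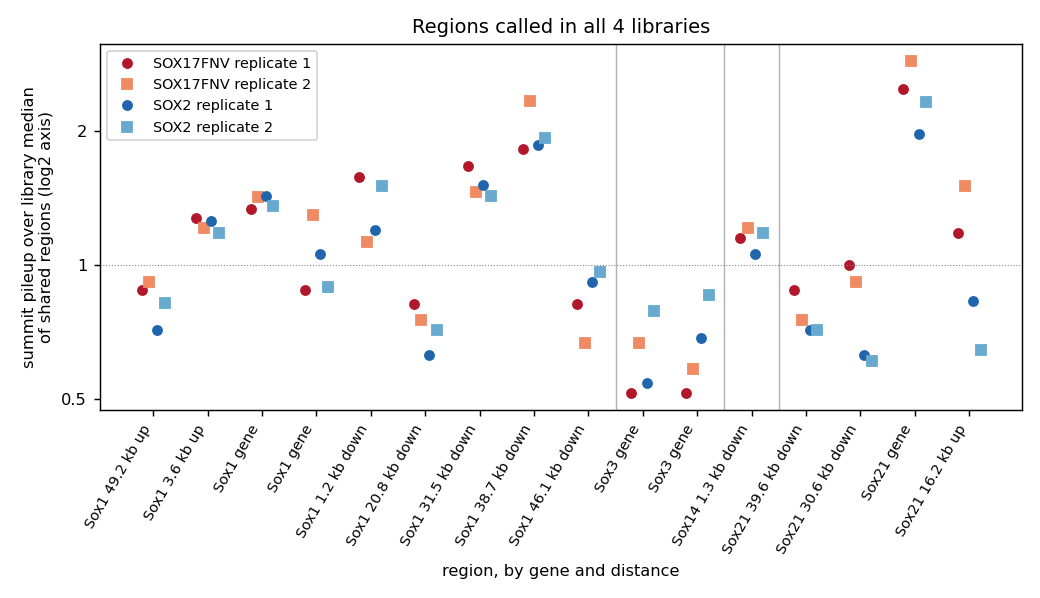
Relative summit pileup (log2 axis) of the 16 regions called in all 4 libraries, ordered by gene and position, with 1 point per library. The 4 Sox21 regions have both SOX17FNV libraries (red and orange) above both SOX2 libraries (blues), most widely 16.2 kb upstream, while most Sox1 regions mix the colours and both Sox3 regions lie below 1.

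The other shared regions of the Sox21 window lay downstream. At chr14:118201929-118202609, 30624 bp from the gene, pileups were 33 and 22 against 22 and 17 (log2 difference 0.63 ± 0.26, SE; adjusted p = 0.234 by limma). At chr14:118192926-118193593, 39640 bp away, they were 29 and 18 against 25 and 20 (0.18 ± 0.26, adjusted p = 0.835). In all 4 shared regions of Sox21 the relative pileup was higher in both SOX17FNV libraries than in either SOX2 library, which held for 24.1% of all shared regions. Their mean log2 difference was 0.50, or 1.42-fold, with 0.37 ± 0.035 with SOX17FNV and -0.13 ± 0.032 with SOX2 (SD, n = 2; exact permutation p = 0.33, the smallest possible).

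The surroundings of Sox21 were higher with SOX17FNV by a similar amount. Shared regions on chromosome 14 outside the window were 1.30-fold higher in SOX17FNV at the median (2516 regions). Within 10 Mb of Sox21 they were 1.41-fold higher (260 regions), and 76.5% of them were higher in both SOX17FNV libraries. Scaled to that 10 Mb median, the mean log2 difference at Sox21 was -0.059, and scaled to chromosome 14 it was 0.13. Peaks within 10 Mb made up 0.660% and 0.699% of all base pairs under peaks with SOX17FNV against 0.404% and 0.403% with SOX2. In the values scaled only to the library medians, a difference of Sox21 itself and one of this stretch of chromosome 14 cannot be told apart.

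**Figure D4:**
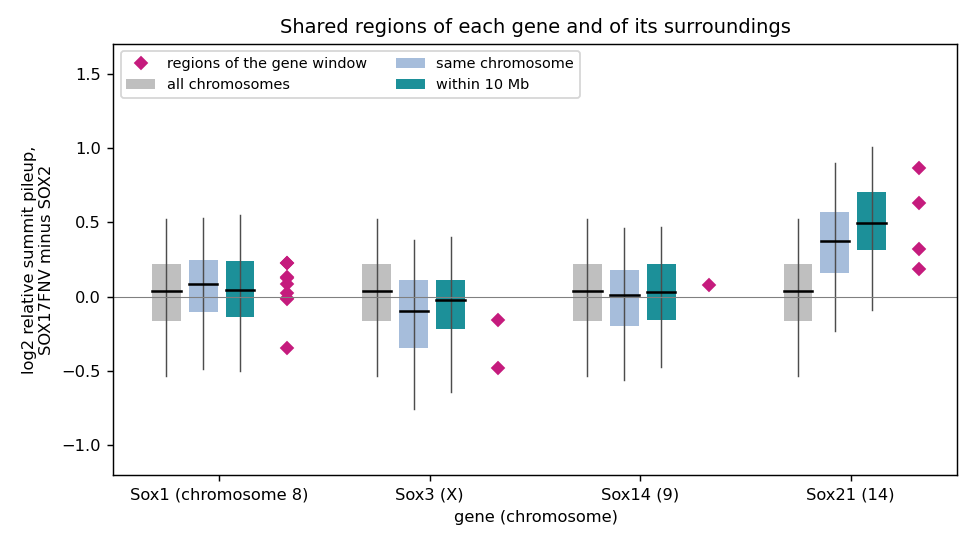
Log2 difference in relative summit pileup, SOX17FNV minus SOX2, of the shared regions in each gene window (diamonds), beside the shared regions of all chromosomes, of the same chromosome and within 10 Mb (bars span the quartiles, black lines the medians, thin lines the 5th to 95th percentiles; the 4 windows are left out). The Sox21 diamonds lie around the raised medians of chromosome 14, 0.37 and 0.49 within 10 Mb, those of Sox1 run from -0.35 to 0.23, that of Sox14 is at 0.080, and both Sox3 diamonds lie below 0 (-0.16 and -0.48).

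The Sox21 window also held 2 of the 3 SOX17FNV-only regions. One, 11520 bp downstream at chr14:118221041-118221713, had pileups of 22 and 20, and the peak of replicate 2 lay wholly within that of replicate 1. The other, 44689 bp downstream at chr14:118188170-118188544, had 12 and 12, with peaks that shared 55 bp (30.7% of the shorter). Within 10 Mb of Sox21, 11.7% of regions were SOX17FNV-only and 1.59% SOX2-only, against 3.06% and 4.09% over the genome. Of the 7 regions called in a single library around Sox21, 5 were of SOX17FNV replicate 1 and 2 of SOX17FNV replicate 2. Of the 4 called in 3 libraries, 3 lacked a call in SOX2 replicate 2. The highest of these, 6408 bp downstream at chr14:118225903-118226825, had 38 and 29 with SOX17FNV and 19 in SOX2 replicate 1. Over the 4 windows, 6 of the 8 regions called in 3 libraries lacked a call in SOX2 replicate 2. Of the 19 called in a single library, 9 and 2 were of SOX17FNV replicates 1 and 2, and 5 and 3 of SOX2 replicates 1 and 2. How such counts fall by library over all regions was not examined.

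Local background bears on which summits are called. At the Sox21 gene it was 16.2 and 11.9 fragments for the SOX17FNV summits of chr14:118234489-118234788, against lowest values of 3.91 and 3.27 in these lists. Ranked by p-value, summits of 31 and 27 there stood only at the percentiles 7.83 and 17.8 of their lists. At Sox1 the background of the promoter region was 9.31 to 13.1 over the libraries. Where the background is higher, a summit needs more fragments to be called. The lowest background in the SOX2 lists was 4.17 and 5.02, so that of SOX2 replicate 2 was the highest of the 4 lists. The lowest pileup of any called peak was 11 and 10 with SOX17FNV against 12 and 13 with SOX2. How far this bears on regions not called in SOX2 replicate 2 was not tested.

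Over the 4 windows, 16 of 49 regions were shared, 3 were SOX17FNV-only and 0 were SOX2-only, where 33.8%, 3.06% and 4.09% of all regions had these classes. A single library called 19 of the 49 (38.8%), near the 35.2% of all regions. The group-specific counts depend on single libraries, since leaving one out lowers the calls a region has to meet. When SOX17FNV replicate 1 was left out 5 regions were SOX17FNV-only and 1 was SOX2-only, and when SOX17FNV replicate 2 was left out 12 and 0. When SOX2 replicate 1 was left out there were 9 and 3, and when SOX2 replicate 2 was left out 4 and 6. When peaks had to overlap by 50% of the shorter one, 1 SOX17FNV-only region was left, and with -log10 q of at least 10 there were 0.

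Among the 16 shared regions, the groups did not overlap in 8. In 6 of them both SOX17FNV libraries were higher (24.1% of all shared regions), 4 at Sox21 and 2 at Sox1, and in 2 both were lower (18.4%), 1 at Sox1 and 1 at Sox3. The median log2 difference of the 16 was 0.10, beside 0.037 over all shared regions. Their widths ran from 414 to 1922 bp with a median of 926 bp, beside 834 bp over all shared regions.

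The covered share of a window ran from 0.881% at Sox3 to 9.86% at Sox1. Peaks covered 9.71% and 6.19% of the Sox1 window with SOX17FNV against 9.86% and 6.88% with SOX2, so replicate 1 exceeded replicate 2 in either group. They covered 7.91% and 5.36% of the Sox21 window with SOX17FNV and 3.43% and 2.72% with SOX2. That is 6.64% ± 1.81 against 3.07% ± 0.50 (SD, n = 2), 2.16 times as much, and the groups did not overlap (exact permutation p = 0.33, the smallest possible). Chromosome 14 outside the window was also higher with SOX17FNV. It held 5.50% and 5.69% of all base pairs under peaks, against 3.84% and 3.84% with SOX2. The Sox14 window was covered to 1.86% and 0.940% against 1.71% and 1.46%, with the groups overlapping. With SOX2 the order was Sox1, Sox21, Sox14 and Sox3 in both libraries. With SOX17FNV the order was the same, but Sox14 and Sox3 were close in replicate 2, at 0.940% and 0.881%. For scale, windows of the 5034 protein-coding genes no longer than 5000 bp held a median of 7 regions. Windows of all 21883 protein-coding genes, of any length, held a median of 16. Of the 5034 short genes, 91.0% had fewer than the 22 of Sox1 and 78.3% fewer than the 18 of Sox21. Fewer than the 7 of Sox14 were held by 49.1%, and fewer than the 2 of Sox3 by 29.4%.

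**Figure D5:**
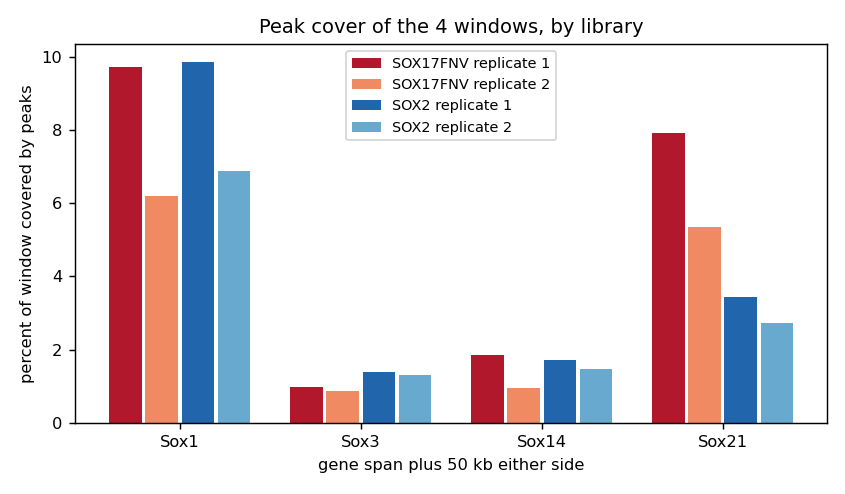
Percent of each gene window (span plus 50 kb either side) under peaks, 1 bar per library. Sox1 and Sox21 windows are the most covered, and the groups stand apart at Sox21 (7.91% and 5.36% against 3.43% and 2.72%) and, at low levels, at Sox3.

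By the covered percent over the 4 libraries, on a log2 scale with 0.1 added, the genes closest to each member out of 21883 were Plekha7 and Kif22 for Sox1 (Euclidean distances 0.015 and 0.020), Mmd and Cubn for Sox3 (0.14 and 0.15), and Nrsn1 and Prima1 for Sox14 (0.099 and 0.19). For Sox21 they were Nr1d2 and Cfap20dc (0.28 and 0.28), both also on chromosome 14. Likeness over 4 libraries is a description, and all values of a library share its depth.

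Of the other 16 SOX genes, 3 had a SOX17FNV-only region in their window and 9 a SOX2-only region, with 4 and 18 regions in all, 9 of the latter at the long gene Sox5. Among all protein-coding genes 31.4% and 35.7% had one. Sox2, the remaining SOXB1 gene, had 27 regions with 10 shared, 0 SOX17FNV-only and 2 SOX2-only. Sox11, a SOXC gene of differentiating neurons, had 6 with 3 shared and no group-specific one. Of the members, Sox14 and Sox21 had SOX17FNV-only regions and none had a SOX2-only region. Among the 5034 protein-coding genes no longer than 5000 bp, as the members are, 18.9% had a SOX17FNV-only and 21.0% a SOX2-only region. Of 16 neural genes that act with or downstream of SOXB factors, 8 had a SOX17FNV-only and 5 a SOX2-only region. Nes, an intermediate filament gene of neural progenitors, and Hes5, a target of Notch signalling there, had 1 SOX17FNV-only region each and no SOX2-only region. Pax6 and Lhx2, both eye and forebrain regulators, had 1 SOX2-only region each and no SOX17FNV-only region. Of the genes of this list on chromosome 14, where Sox21 lies, Zic2 had 1 of either kind and Otx2 had 0 SOX17FNV-only and 1 SOX2-only region.

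The 50 kb limit was set by position alone. At Sox1 the outermost downstream region inside it, 46085 bp away, was shared, and the next one outside, 52403 bp away, was called in SOX17FNV replicate 2 alone with a pileup of 22. At Sox21 the outermost upstream region inside, 45723 bp away, had 30 and 23 in the SOX17FNV libraries and 16 in SOX2 replicate 1, and the first one outside downstream, 52193 bp away, was shared with 40 and 36 against 36 and 40.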

How the data were processed

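Per the submitters' processing notes the authors used Bowtie2, SAMtools and MACS2 with the build mm10. Versions, settings, filters and any transposase shift were not given in the sources used here. The authors deposited 1 peak list per library (2 SOX17FNV, 2 SOX2), with the authors' fold ratio, a -log10 p and a -log10 q per summit, and a score per peak that was not used here. The lowest -log10 q was 1.30 in each list.

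The summit pileup was solved from the deposited fold and -log10 p as the whole number that returns both (within 0.001 for 100% of summits). This was tested on 5000 simulated pileups (100% recovered), and classing on 4000 simulated regions (100%). Read totals were not used, since the lists hold none, and depth was read from pileups. Peaks were distinct intervals on chromosomes 1 to 19, X and Y. Regions were compared in limma 3.58.1 (R 4.3.3) on log2 relative summit pileup with an intensity trend and Benjamini-Hochberg adjustment over 57783 shared regions. On simulated data for this comparison (57783 regions) it called 65% of regions changed by 1 on the log2 scale and 100% of those changed by 2. The simulated noise was independent, had the spread of the same fit and held no shift by chromosome. These shares need not hold for the real libraries. Single values were compared by exact permutation tests over libraries, two-sided. Other steps used Python 3.11.15 with SciPy 1.17.1. Gene spans and promoters came from RefSeq (GRCm38.p6), where 3 of 4 members had a promoter entry, and no exons were used.

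The members and gene lists were chosen with earlier results of these data known. Regions named are those at a gene or within 1 kb of its ends, group-specific ones, and the 3 of highest mean percentile per window, and further regions of the windows were added after their values were seen. Likeness is by covered percent, leaving out overlapping windows. Alternatives were stricter q, equal list lengths, other overlap, windows of 20 and 100 kb, other scalings, a mean pileup of at least 20, a replicate block and leaving out each library.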

Additional observations from a re-analysis of the deposited data

How the results depend on the processing

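Shared regions of the 4 windows numbered 16, but 7 with -log10 q of at least 5, 2 with at least 10, 9 within 20 kb and 28 within 100 kb of the genes. Leaving out a library gave 16 to 22. SOX17FNV-only regions numbered 3, but 0 with -log10 q of at least 10, 1 when peaks had to overlap by 50% of the shorter, 6 within 100 kb and 4 to 12 without 1 library. SOX2-only regions numbered 0, but 1 with -log10 q of at least 5 and 0 to 6 without 1 library. The other planned settings kept these counts within 1.5 times, and the causes were not tested. Sox3 had no shared region with -log10 q of at least 5, and neither of its regions had a mean pileup of at least 20. The mean log2 differences were not computed with equal list lengths, with the 50% overlap or with -log10 q of at least 10.

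The mean log2 difference at Sox1 turned to -0.011 with the chromosome median, to -0.0014 with -log10 q of at least 5 and to -0.0074 with the median within 10 Mb, and ran from -0.022 to 0.057 without 1 library. Without 1 library it ran from -0.11 to 0.094 at Sox14, from -0.59 to -0.16 at Sox3 and from 0.42 to 0.65 at Sox21. Sox14 was at 0.28 with the mean of the summits, and Sox21 at 0.28 with -log10 q of at least 5, where 1 shared region was left. Sox21 turned to -0.059 with the 10 Mb median, a scale chosen after seeing the data. With the chromosome median, the Sox21 regions starting at 118192926 and 118236001 turned to -0.19 and -0.051 and the Sox1 region at 12391531 to -0.034 (-0.0079 with a mean pileup of at least 20). Without 1 library the Sox1 regions ran from -0.020 to 0.073 (12391531), -0.063 to 0.025 (12394945), -0.14 to 0.41 (12397331), -0.25 to 0.23 (12400758), -0.012 to 0.18 (12431073) and -0.058 to 0.30 (12438228), and the Sox3 region at 60891882 from -0.42 to 0.11.

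Over all shared regions limma called 1226. It called 399 without the intensity trend and 0 to 152 without 1 library (0 without either SOX17FNV library, where 5891 without replicate 1 and 4572 without replicate 2 had an unadjusted limma p under 0.05). With the replicate number as a block it called 3674. Over shared regions the deviations of same-numbered libraries correlated at 0.23 (57783 regions), but the labels give no shared source, so the pairing is of number only. The block left the calls of all 16 member regions as they were, and the mean differences were 0.049 at Sox1, -0.32 at Sox3, 0.080 at Sox14 and 0.50 at Sox21, as without it (exact p = 0.5 by sign changes of the pairs, the smallest possible). Depth is known only as pileup, and each group has 2 libraries.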

Other observations

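Between 50 and 100 kb from the genes lay 42 further regions, 20 of them at Sox1, 17 at Sox21, 3 at Sox14 and 2 at Sox3. The tallest at Sox21 overlapped Gpr180, a G protein-coupled receptor gene, at chr14:118136459-118137823, with pileups of 77 and 59 with SOX17FNV against 58 and 48 with SOX2. A shared region 63444 bp downstream of Sox21, chr14:118168689-118169789, had 57 and 38 against 33 and 24. The shared regions within 10 Mb of Sox21 were 1.41-fold higher in SOX17FNV at the median. At Sox1, a region 55443 bp downstream (chr8:12454998-12456637) had 73 and 39 against 63 and 32, and there the libraries of replicate 1 were the higher ones in both groups. Of the 42 regions, 3 were SOX17FNV-only, a class that held 3.06% of all regions. One lay 93509 bp upstream of Sox1, at chr8:12301755-12302010, with pileups of 17 and 13. At Sox21 there were 2 more, 70353 bp downstream with 22 and 16 and 75607 bp upstream with 17 and 16. Within 10 Mb of that gene 11.7% of regions were SOX17FNV-only.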
